A study of Homo sapiens with 6 samples.

Results

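HuR (ELAVL1) binding was described at 8 genes of the mitochondrial route to apoptosis in HEK293, an established human embryonic kidney cell line. The genes were BCL2, MCL1, BCL2L1, XIAP and PTMA, which favour survival, and BCL2L11, CYCS and APAF1, which favour death. Their sites were taken by position, as every deposited interval on the gene's own strand that overlapped its locus by at least 1 nt. No measured value entered that step, but the genes and lists were chosen with earlier results of these data known. The loci held 160 of 186157 sites in HuR replicate 1, 280 of 405048 in replicate 2 and 378 of 550681 in replicate 3. They also held 436 of the 658853 sites in the authors' list for the combined replicates and 254 of the 373845 in the list they filtered at p 0.05.

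In DO-RIP-seq, lysate is digested with micrococcal nuclease under optimised conditions, a protein is immunoprecipitated, and the RNA pieces it protects are sequenced. The 3 HuR samples came from immunoprecipitations with the anti-HuR antibody 3A2, and another 3 samples, whose separate values were not analysed here, came from normal mouse serum. All cells were untreated HEK293, and pieces of 25 to 70 nt were sequenced. Digested lysate was pooled before it was divided over the immunoprecipitations, so the spread over the 3 replicates may be technical only. The deposited lists give each site a LOD score, whose formula the sources used here do not give. Scores are therefore compared as percentiles within their own list, where 100 is the highest score. Depth is unknown. RNA levels were not analysed here, so a locus with few sites cannot be told apart from one with little RNA.

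HuR is an RNA-binding protein that recognises U-rich and AU-rich stretches, mostly in introns and 3′ untranslated regions, and is best known for stabilising mRNAs and changing their translation. In the mitochondrial route, BCL2, MCL1 and BCL2L1 (the gene of BCL-XL) keep the outer mitochondrial membrane closed, and BCL2L11 (BIM) counteracts them. Once the membrane opens, cytochrome c, encoded by CYCS, leaves the mitochondrion and binds APAF1, which assembles the apoptosome and activates caspases. XIAP inhibits caspases, and PTMA, prothymosin alpha, can hinder the assembly of the apoptosome. Reports from other groups have placed several of these mRNAs, among them those of BCL2, MCL1, XIAP, PTMA and CYCS, under the control of HuR.

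The 8 genes differed widely in how much of their length was called. Short MCL1 and CYCS were the most densely covered, XIAP, BCL2L11 and APAF1 lay between, and BCL2 and BCL2L1 were nearly bare. MCL1 had 11, 15 and 13 sites in replicates 1, 2 and 3 over 5188 nt, and these covered 14.3%, 20.2% and 16.9% of the locus. CYCS had 12, 14 and 19 sites over 6711 nt, covering 11.6%, 20.6% and 18.3%. The replicates of both genes thus lay above those of every long locus in sites per kb. XIAP had 46, 68 and 87 sites over 54256 nt, covering 4.45%, 10.8% and 11.4%. BCL2L11 had 32, 54 and 72 sites over 47532 nt, covering 3.03%, 8.0% and 9.09%. APAF1 had the most sites of the 8, with 40, 96 and 127 over 90134 nt, covering 2.52%, 7.26% and 8.86%. In these 3 genes replicate 1 was the lowest throughout, as it was in the size of its whole list. PTMA had 3, 2 and 3 sites over 5017 nt, covering 5.18%, 7.10% and 6.70%. BCL2 had 14, 27 and 53 sites over 196035 nt, covering 0.406%, 1.03% and 1.48%. BCL2L1 had 2, 4 and 4 sites over 58396 nt, covering 0.163%, 0.317% and 0.342%. The last 2 genes belong to the same family as MCL1, and in every replicate the called share of MCL1 was above theirs. That holds over whole loci of unlike length. In the last 5 kb alone, BCL2 had 9.2%, 20.3% and 21.1% called, below MCL1 in replicate 1 only. BCL2L1 had 1.2%, 2.4% and 2% called there, below MCL1 in each.

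Because the lists differ in size, site density was also expressed per kb and scaled to a list of 1000000 sites. On that scale MCL1 had 7.69 ± 3.45 and CYCS 6.63 ± 2.57 (SD, n = 3 here and below). The ranges of the pair overlapped over the replicates. XIAP had 3.52 ± 0.900 and BCL2L11 3.06 ± 0.485, and these ranges also overlapped, although XIAP was the higher in 3 of 3 replicates. APAF1 had 2.52 ± 0.126, the steadiest of the 8 relative to its mean, and PTMA had 1.76 ± 1.26, with overlapping ranges. BCL2 followed with 0.405 ± 0.0777 and BCL2L1 with 0.159 ± 0.0310. Neighbours in this order whose replicates did not overlap were CYCS above XIAP, BCL2L11 above APAF1, PTMA above BCL2 and BCL2 above BCL2L1. The introns of the long loci enter these densities, so they do not compare mature mRNAs.

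**Figure D1:**
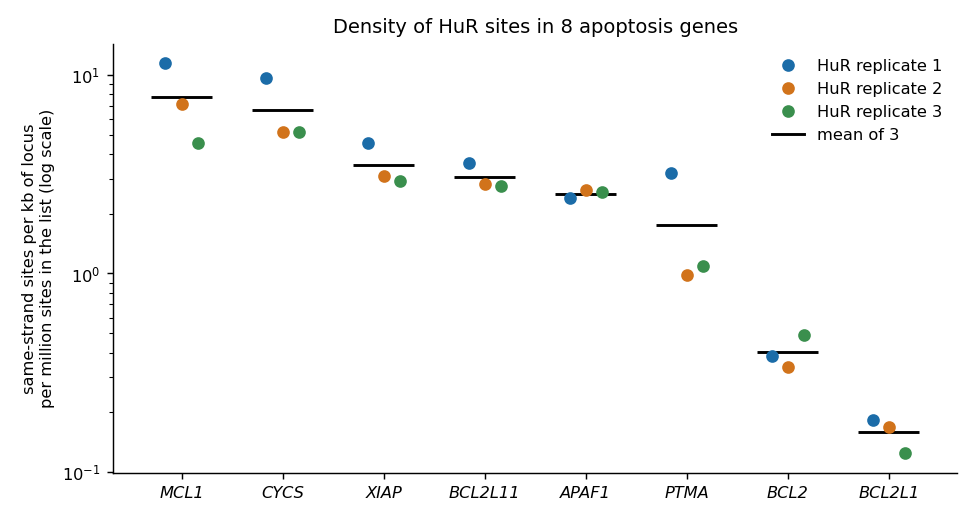
Same-strand HuR sites per kb of locus scaled to a list of 1000000 sites (log scale) for the 8 genes in falling order, with a point for each HuR replicate and a line at the mean of 3. MCL1 and CYCS lead with means of 7.69 and 6.63, and BCL2L1 is the lowest with 0.159.

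The order depended in part on weak sites. With only the 186157 top-scoring sites of every list, as many as the shortest list has, CYCS held 12, 2 and 2 sites in replicates 1, 2 and 3, and MCL1 held 11, 5 and 3. By construction the limit dropped most sites of the longer lists, keeping 186157 of 405048 in replicate 2 and 186157 of 550681 in replicate 3. CYCS kept 2 of 14 and 2 of 19 sites there, and MCL1 kept 5 of 15 and 3 of 13. These shares were below those of the whole lists, while the shares of APAF1, 47 of 96 and 49 of 127, were above them. APAF1 held 40, 47 and 49 and BCL2L11 32, 26 and 22, while XIAP held 46, 30 and 27. BCL2 held 14, 14 and 9, PTMA 3, 2 and 1, and BCL2L1 2, 1 and 0. Replicate 1 is whole under this limit, and in the other two the order changed. CYCS had 0.298 sites per kb in both replicate 2 and replicate 3, below XIAP with 0.553 and 0.498, BCL2L11 with 0.547 and 0.463, and APAF1 with 0.521 and 0.544.

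The score ranks set the genes apart in another way. The sites of CYCS were mostly weak, with median percentiles of 12.0, 9.03 and 6.06 in replicates 1, 2 and 3. Those of MCL1 had medians of 30.9, 17.7 and 8.39. CYCS had 1 site in the top 10% of scores in each replicate, which is 8.33%, 7.14% and 5.26% of its sites. MCL1 had 0, 1 and 0 there, and the share over each list is 10% by definition. On so few sites, none of these counts is far from that share. Of the combined sites, 10 of 22 in CYCS and 8 of 17 in MCL1 fell in the lowest 10% of scores, a share that is 10% by definition over all sites. PTMA stood at the other end with medians of 81.8, 78.8 and 63.1, on 3, 2 and 3 sites. APAF1 was close to the middle of the list in all replicates, with 55.6, 53.2 and 54.3. BCL2 had medians of 68.9, 54.8 and 35.9, so its rank was lowest in the longest list, where it also had the most sites. XIAP had 35.9, 43.0 and 42.8, BCL2L11 had 41.0, 49.5 and 41.1, and BCL2L1 had 25.9, 24.9 and 38.9. Over the 8 genes together the medians were 44.4, 46.9 and 43.9, where 50 is the middle of each list by definition. Of the combined sites, 8.49% lay in the top 10% of scores and 16.1% in the lowest 10%.

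**Figure D2:**
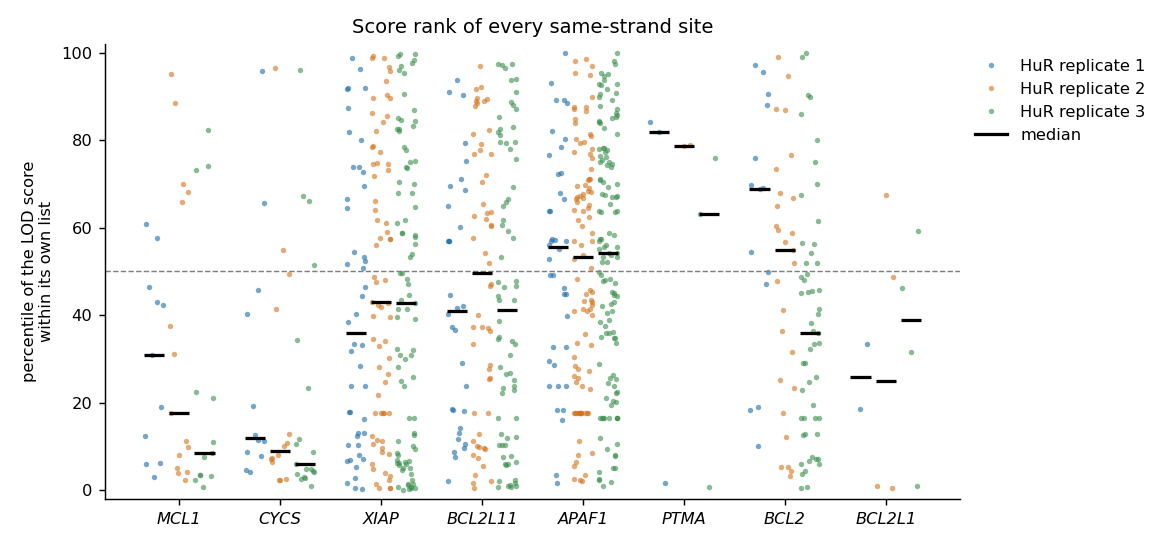
Percentile of the LOD score within its own list for every same-strand site, by gene and HuR replicate, with a black line at each median and a dashed line at the middle of the list. CYCS and MCL1 hold many sites near the bottom, the sites of PTMA lie mostly high, and those of APAF1 spread evenly around the middle.

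Recurrence over all 3 replicates was highest in the short genes. A combined site was counted as found in all 3 replicates when it overlapped a site in each of their lists. Over all combined sites in the series, the share was 22.9%. It was 133 of 436 sites (30.5%, 95% Wilson interval 26.4% to 35.0%) over the 8 genes. These intervals cover counting error only, and sites of 1 gene are not independent. MCL1 had 11 of 17 sites found in all 3 replicates (64.7%, 41.3% to 82.7%) and CYCS had 12 of 22 (54.5%, 34.7% to 73.1%). PTMA had 2 of 3. The intervals of MCL1 and CYCS lay above the series' share. With a LOD above 2, where that share was 22.2%, the interval of CYCS, 18.5% to 61.4%, held it. XIAP had 33 of 99 (33.3%, 24.8% to 43.1%) and BCL2L11 had 27 of 81 (33.3%, 24.0% to 44.1%), also above it. Neither did so with a LOD above 2, where the intervals were 21.3% to 40.7% in XIAP and 20.0% to 40.0% in BCL2L11. APAF1 had 33 of 145 (22.8%, 16.7% to 30.2%), BCL2 had 14 of 62 (22.6%, 14.0% to 34.4%) and BCL2L1 had 1 of 7. The shares of APAF1 and BCL2 were near the background. By function, the 5 survival genes had 61 of 188 sites (32.4%) in all 3 replicates and the 3 death genes 72 of 248 (29.0%), with overlapping intervals. The shares moved with replicate 1, whose list was the shortest. Asking only for replicates 2 and 3 gave 53.9% over the 8 genes, beside 51.2% over all sites, with 55.2% in APAF1 and 37.1% in BCL2. BCL2L11, a long locus, had 60.5%, above CYCS with 59.1%. The intervals of MCL1 (41.3% to 82.7%), CYCS (38.7% to 76.7%), XIAP (44.8% to 64.0%) and BCL2L11 (49.6% to 70.4%) then all held the share of all sites, so none of the 4 stood above it without replicate 1.

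The same was read from each replicate. Of the sites in the 8 genes, 148 of 160 (92.5%) in replicate 1 were matched in replicates 2 and 3 alike, against 89.1% of all its sites. The share was 133 of 280 (47.5%) in replicate 2, against 37.8%, and 135 of 378 (35.7%) in replicate 3, against 28.4%. The pooled share was above the background in 3 of 3 lists, but the genes differed. MCL1 had 11 of 11, 12 of 15 and 11 of 13 in replicates 1, 2 and 3, and CYCS 12 of 12, 11 of 14 and 12 of 19. PTMA and BCL2L11 were likewise above the background in each list. BCL2 had 14 of 14 and 14 of 27, but 15 of 53 (28.3%) in replicate 3, at the background. XIAP was below it in replicate 1, with 39 of 46 (84.8%), and above in the other two. APAF1 was below it in replicate 2, with 34 of 96 (35.4%), and in replicate 3, with 33 of 127 (26.0%). BCL2L1 was below it in all 3, with 1 of 2, 1 of 4 and 1 of 4.

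The p filter treated the genes much like the rest of the list. The 8 genes kept 230 of 436 sites (52.8%, 48.1% to 57.4%), and all combined sites kept 52.3%. BCL2L11 kept 51 of 81 (63.0%, 52.1% to 72.7%), and BCL2 kept 24 of 62 (38.7%, 27.6% to 51.2%), below the share of all sites. The BCL2 interval held the share of all sites with a LOD above 1 (30.2% to 55.0%, against 54.4%), with sites of at least 30 nt (32.3% to 58.6%, against 57.8%) and with 50% of each interval shared (22.0% to 44.6%, against 41.7%). Of the 133 sites found in all 3 replicates, 124 passed the filter (93.2%), against 98.1% of all such sites. Of the 53 combined sites found in no replicate list, 6 did (11.3%), against 10.4%. Such sites made up 12.2% of the combined sites in the 8 genes, against 11.0% of all. The genes differed, with 14 of 62 in BCL2 (22.6%) and 4 of 17 in MCL1 (23.5%). XIAP had 7 of 99 (7.07%) and APAF1 13 of 145 (8.97%).

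**Figure D3:**
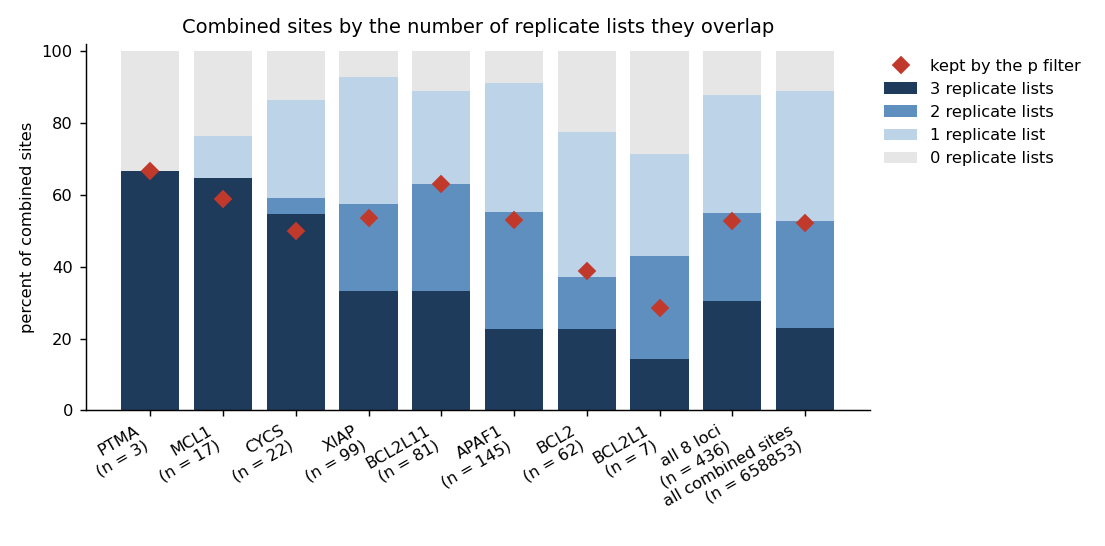
Percent of combined sites that overlap a site in 3, 2, 1 or 0 replicate lists (stacked bars) and percent kept by the p filter (diamonds), for the 8 genes, for them together and for all combined sites. PTMA, MCL1 and CYCS have the tallest bars for 3 replicate lists, at 2 of 3 sites, 64.7% and 54.5%, against 22.9% for all sites.

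Counted in bases, 28668 nt of the 8 loci were called in at least 1 replicate and 8010 nt in all 3 (27.9%). PTMA had 260 of 371 nt in all 3 (70.1%), MCL1 had 675 of 1120 nt (60.3%) and CYCS had 700 of 1600 nt (43.8%). XIAP had 2155 of 7685 nt (28.0%), and BCL2 had 755 of 3220 nt (23.4%). BCL2L1 had 60 of 285 nt (21.1%), all in 1 site near the 3′ end of the locus. The order by bases was thus the order by sites at its top.

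Site density in the long loci was higher in the last 5 kb than in the rest, although the 3′ end was not always the fullest stretch. Positions are given on hg19, without an assignment to exons, introns or untranslated regions, since no annotation of that build was used here. Over the 5 loci longer than 10 kb, the last 5 kb held 5.85 ± 2.42 times the site density of the rest, with 3.79 in the lowest and 8.52 in the highest replicate. Sites and lengths were summed over the loci first, so differences in density between loci also enter this ratio. By locus, the mean ratio ran from 3.13 in BCL2L11 to 26.1 in BCL2. XIAP had 15 of 46, 19 of 68 and 21 of 87 sites in its last 5 kb, a density 4.77, 3.82 and 3.13 times that of the rest. Its called bases made up 17.2%, 44.5% and 40.6% of those 5 kb, against 3.15%, 7.41% and 8.48% of the rest. The sites there were mostly weak, with median percentiles of 10.4, 11.2 and 6.55, against 44.3, 47.6 and 49.7 in the rest. With a LOD above 2 the mean XIAP ratio was 2.57, against 3.91 with all sites. Of the 33 XIAP sites found in all 3 replicates, 17 lay in its last 7 kb. BCL2L11 had density ratios of 4.46, 2.70 and 2.24, and its sites there were weak too, with median percentiles of 18.4, 9.54 and 6.33, against 44.6, 60.4 and 47.9 in the rest. APAF1 had ratios of 6.46, 2.67 and 1.61, which averaged 3.58 ± 2.55 and would be 2.14 without replicate 1. The ratio was above 1 in every replicate of these 3 genes and fell as the list grew longer. When APAF1 was divided into 10 equal parts, the part with the most sites was the third in replicates 2 and 3, with 21 and 24 sites, against 14 and 14 in the last. In replicate 1 it was the last, with 11 sites, against 10 in the third.

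BCL2 had sites at both ends. Its last 5 kb held 7 of 14, 11 of 27 and 14 of 53 sites, and the density there was 38.2, 26.3 and 13.7 times that of the rest. With the last 10% of the locus in place of 5 kb, the mean BCL2 ratio was 6.58, against 26.1. The first and last 10% of the locus together held 13 of 14, 24 of 27 and 34 of 53 sites. Between the middle of the locus and its last 10% no replicate had any site, and the longest stretch without one ran over 153305, 102350 and 94105 nt. BCL2L1 had 1, 3 and 2 sites in its last 5 kb, of 2, 4 and 4, which is too few to describe a trend.

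The short genes showed 3 different layouts. In PTMA, all 3 sites of replicate 1 and both of replicate 2 lay in the last 10% of the locus, and replicate 3 had 1 further site outside it, at percentile 0.703. In MCL1 the first 1614, 1544 and 1574 nt were free of sites in replicates 1, 2 and 3, and the last 50% of the locus held 1.83 ± 0.382 times the sites of the first 50%. In CYCS the 2 parts were alike, with a ratio of 1.08 ± 0.227.

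**Figure D4:**
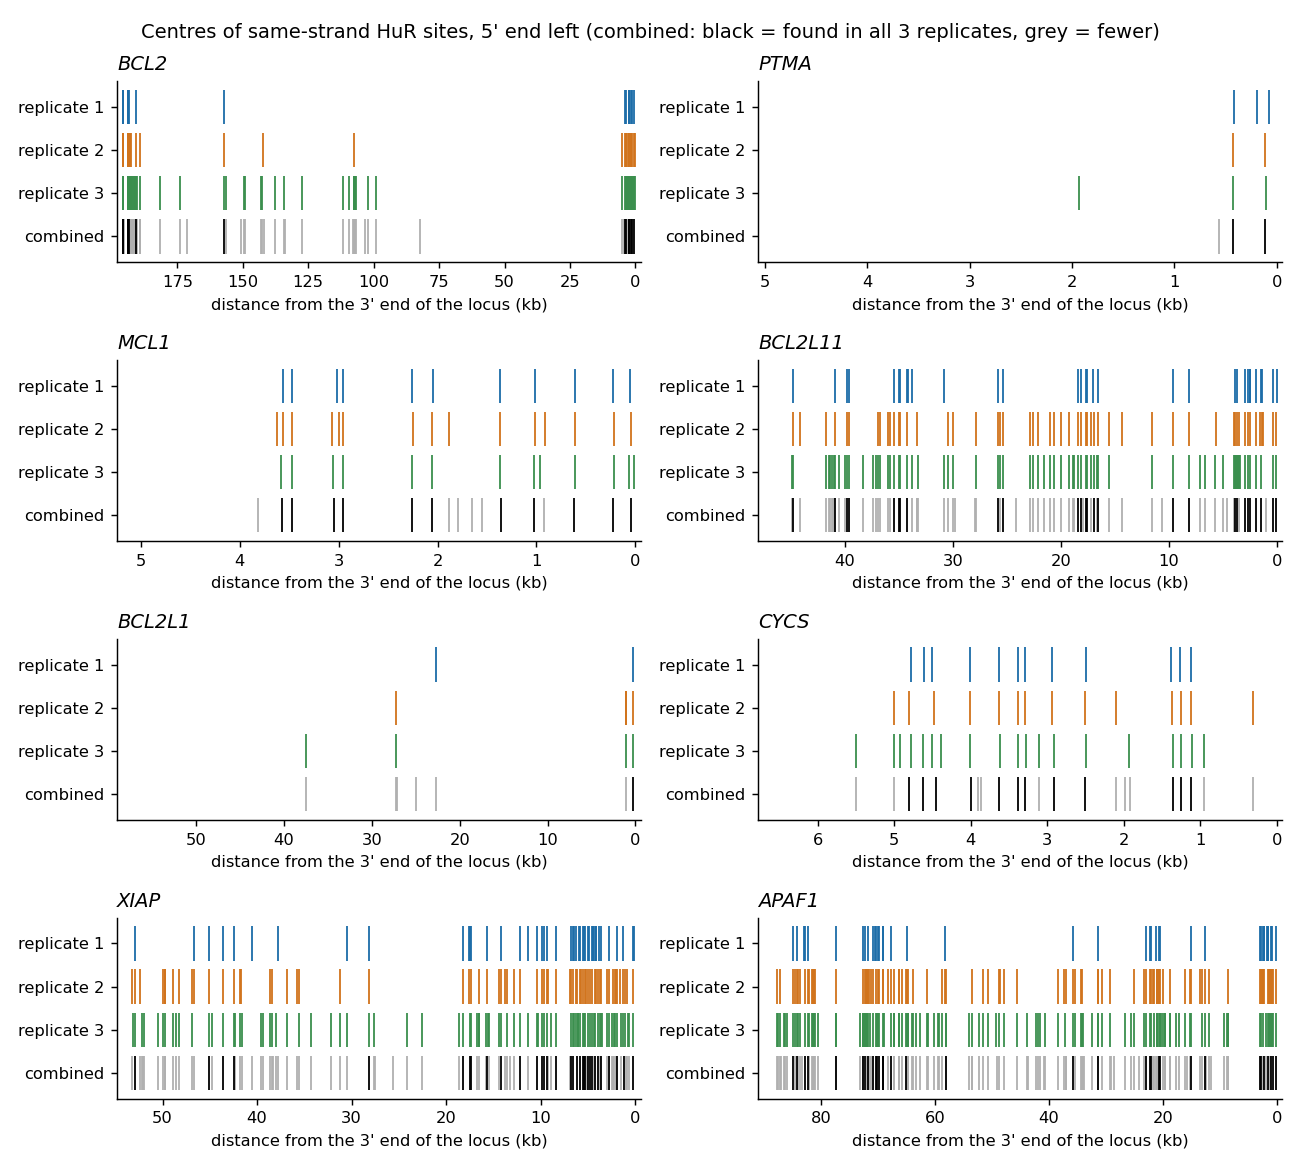
Centres of same-strand HuR sites along each locus, in kb from its 3′ end with the 5′ end at the left, for the 3 HuR replicates and the combined list, where black marks sites found in all 3 replicates and grey marks the others. BCL2 has sites at both ends and a long empty stretch between, XIAP thickens toward the 3′ end, and PTMA has sites at its 3′ end.

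The strongest site of BCL2 lay near the 5′ end. It was chr18:60984121-60984220 on the minus strand, 100 nt wide and 194 kb from the 3′ end of the locus. Its LOD was 9.17, 8.83 and 9.93 in replicates 1, 2 and 3, which placed it at percentiles 95.6, 98.9 and 99.99. In replicate 3, 30 of the 550681 sites scored higher, and in the combined list, where its LOD was 22.8, 286 of 658853 did. Next to it, chr18:60984476-60984600 stood at percentiles 90.7, 87.1 and 86.1. The 2 sites were high in every replicate. The top site of replicate 1 was instead near the 3′ end, at chr18:60793931-60794050. It fell within the combined site chr18:60793921-60794205, which stood at percentiles 97.2, 94.6 and 99.1 in the replicates but at 78.2 in the combined list and 99.8 in the p-filtered list.

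MCL1 had no site of that rank in all replicates. Its highest combined score, with a LOD of 13.1, belonged to chr1:150548996-150549175, 180 nt wide and 2.06 kb from the 3′ end. That site stood at percentiles 46.5, 95.1 and 73.2, a spread of 71.6 ± 24.3. A second site, chr1:150549971-150549995, only 25 nt wide, was the highest of replicate 1 at percentile 60.9, and stood at 70.0 in replicate 2 and 74.1 in replicate 3. A different MCL1 site led each replicate list. BCL2L1 had a single site in all 3 replicates, chr20:30252496-30252570, 272 nt from the 3′ end, at percentiles 18.5, 67.4 and 31.7. Among the replicates it led in replicate 2 only, but it also led the BCL2L1 sites of the combined and p-filtered lists.

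XIAP, the direct caspase inhibitor, had several high sites. The first, chrX:123042756-123042920, lay 4.99 kb from the 3′ end with a combined LOD of 21.8, and stood at percentiles 92.0, 98.9 and 99.8. The second, chrX:123033531-123033610, lay 14.3 kb from the 3′ end at percentiles 72.7, 99.3 and 99.2. Both ranked higher in replicates 2 and 3 than in replicate 1, whose own highest site was chrX:123041841-123041950 at percentile 98.7. The widest combined site of the 8 genes was chrX:123047361-123047805, 445 nt at the 3′ end of XIAP, at percentiles 91.7, 82.0 and 70.5. The p-filtered list ranked another one first, chrX:123046496-123046560, at percentile 99.98. The combined site around it, chrX:123046441-123046770, stood at 76.2 in the combined list.

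PTMA turned on 2 neighbouring sites. The site chr2:232577751-232577895, 145 nt wide, stood at percentiles 81.8, 78.7 and 75.9, a narrow spread of 78.8 ± 2.97. The site chr2:232578021-232578255, 235 nt wide, ran 4 nt past the end of the locus and stood at 84.3, 78.8 and 63.1. Their combined LOD scores were 11.3 and 12.2, and both passed the p filter. Named pseudogenes were counted by gene symbol, as the gene's name followed by P, with or without a number. PTMA has 12, CYCS has 42 and XIAP has 3, so the assignment of reads to these loci is uncertain where copies are nearly identical. The other 5 genes have none with such a symbol.

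**Figure D5:**
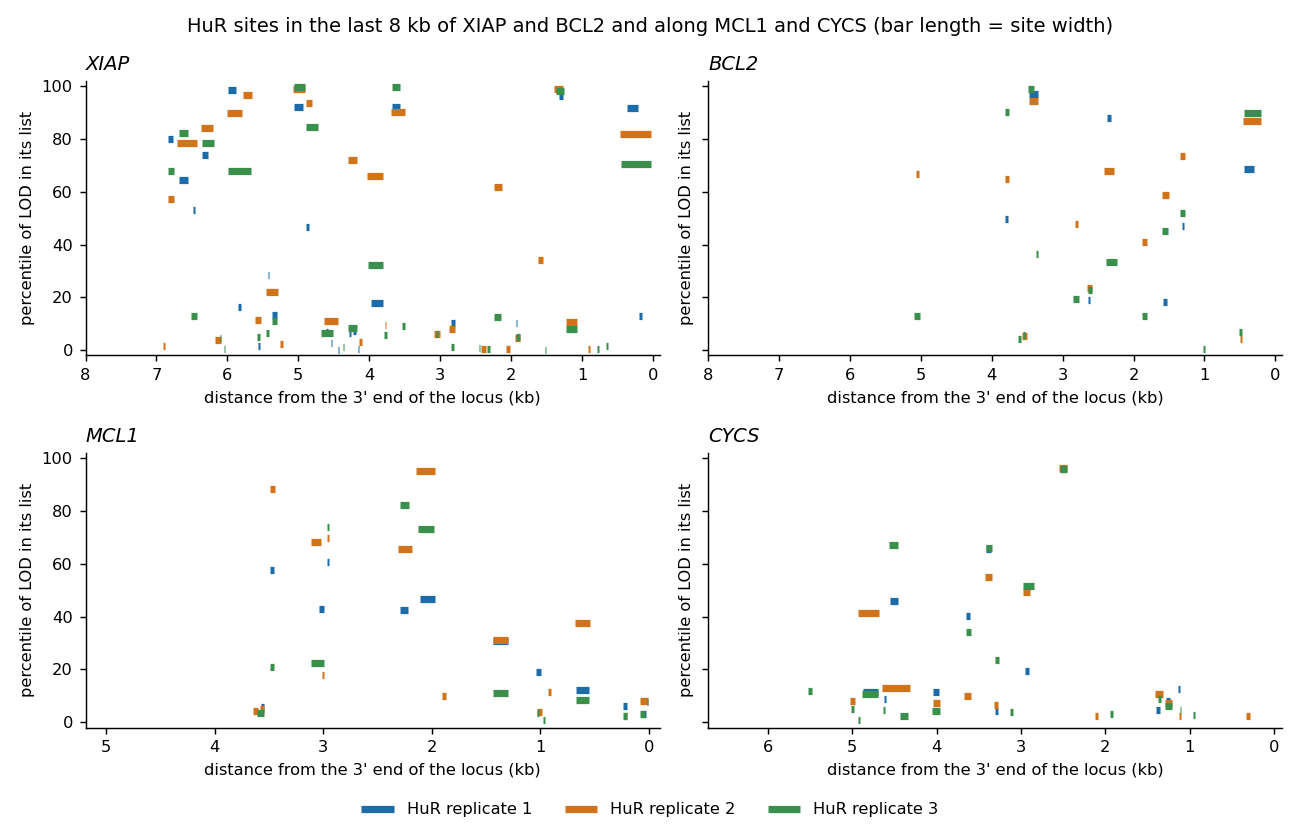
Sites in the last 8 kb of XIAP and BCL2 and along the whole of MCL1 and CYCS, placed by distance from the 3′ end (kb) and by the percentile of their LOD within the list, with bar length equal to site width and a colour for each HuR replicate. In CYCS the 3 replicates coincide at percentile 96 about 2.5 kb from the 3′ end, while the highest sites of MCL1 differ by replicate.

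Among the death genes, CYCS held the most reproducible site of those named. The site chr7:25160721-25160820, 2.5 kb from the 3′ end, led the CYCS sites in every replicate, with LOD scores of 9.27, 7.90 and 6.50 and percentiles of 95.9, 96.5 and 96.0 (96.1 ± 0.324). The next, chr7:25161611-25161695, stood at 65.6, 54.9 and 66.1. The top CYCS site was thus far above this one in each replicate.

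In BCL2L11 the site with the highest combined LOD lay far from the 3′ end. The site chr2:111891741-111891895, 34.2 kb from the 3′ end with a combined LOD of 17.2, stood at percentiles 91.1, 97.0 and 97.5. Its widest site, chr2:111924396-111924720, 325 nt and 1.46 kb from the 3′ end, stood at 71.1, 63.5 and 25.1. The p-filtered list ranked an interval within this widest site first, chr2:111924641-111924715, at percentile 98.0. The interval within the site 34.2 kb from the 3′ end stood at 93.4 there. By combined LOD among sites found in all 3 replicates, the next ranks belonged to a pair near 17 kb from the 3′ end. These were chr2:111908966-111909205 and chr2:111909466-111909515. The first of them was the highest of replicate 1, at percentile 93.7.

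APAF1 had 3 sites found in all replicates above percentile 99 of the combined list. The first, chr12:99046176-99046445, 82.9 kb from the 3′ end with a combined LOD of 21.0, covered the top site of replicate 1, chr12:99046361-99046430, at percentile 99.9. It also led replicate 3 at percentile 99.9 and stood at 98.0 in replicate 2. The replicate 1 site that shared the most bases with it stood at 76.7. The second, chr12:99128931-99129185, lay at the 3′ end of the locus at percentiles 82.1, 97.0 and 97.5. The third, chr12:99106261-99106320, led replicate 2 at 98.5, and stood at 55.1 in replicate 1 and 98.1 in replicate 3.

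Score orders within APAF1, XIAP, BCL2 and BCL2L11 were most alike between replicates 2 and 3, which was not so in MCL1 and CYCS. Across the 33 APAF1 sites found in all 3 replicates, Spearman's rho was 0.281 between replicates 1 and 2, 0.319 between 1 and 3 and 0.791 between 2 and 3. Across 33 XIAP sites it was 0.522, 0.610 and 0.802, and across 14 BCL2 sites 0.688, 0.578 and 0.864. MCL1, with 11 sites, had 0.836, 0.818 and 0.827, without a weaker pair. CYCS, with 12 sites, had 0.610, 0.664 and 0.641, and BCL2L11, with 27 sites, had 0.448, 0.432 and 0.642. These values describe sites that share a transcript and a library and are not independent.

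Except at the 5′ end of BCL2, site density was higher in each locus than in the flank on either side. Regions of the same length on each side of each locus were read on the same strand. The 8 loci together held 3.43 ± 0.206 times the site density of these flanks. CYCS had 3.28 combined sites per kb in the locus, against none upstream and 0.298 downstream. MCL1 had 3.28, against none and 0.386, and XIAP had 1.82, against none and 0.313. The 5′ flanks of MCL1, XIAP, PTMA and CYCS held no combined site. BCL2 went the other way, with 0.316 in the locus, against 0.806 upstream and none downstream, where upstream is the side before its 5′ end. APAF1 had 1.61, against 0.510 upstream and 0.0333 downstream.

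The letters that HuR is known to prefer were counted in the 3′ untranslated regions of the genes, on the transcript strand, with overlapping matches included. The longest annotated region of each gene was taken from GENCODE v29 on GRCh38, which is not the build of the sites, so no site was placed in it. Counted were AUUUA and UUUUU, and over 19146 genes the medians were 1.48 and 4.40 per kb, with 29.2% U. XIAP had the longest region of the 8, 6798 nt, with 20 AUUUA and 75 UUUUU. PTMA had the shortest, 690 nt, with 1 AUUUA but 20 UUUUU (29.0 per kb, percentile 98.7 of all genes). APAF1 had 45 UUUUU in 2945 nt (15.3 per kb, percentile 92.1) and the highest share of U, 34.7%. CYCS led in AUUUA, with 16 in 3610 nt (4.43 per kb, percentile 88.3), followed by MCL1 with 10 in 2824 nt (3.54 per kb). In UUUUU, CYCS had 39 (10.8 per kb, percentile 81.8). MCL1 had 11 (3.90 per kb, percentile 46.9), which is below the median of all genes. BCL2 had 13 AUUUA and 37 UUUUU in 5279 nt, and BCL2L11 had 8 and 31 in 4480 nt. BCL2L1, with the lowest site density, had the lowest share of U, 23.4% (percentile 20.7), and 3 of each in 1497 nt. BCL2L1 was the only one of the 8 with a share of U below the median of all genes. A match is a description of letters, not a site.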

How the data were processed

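HEK293 lysate was digested, pooled and divided over immunoprecipitations with anti-HuR or normal mouse serum, per the labels' protocols, and titles gave the group and number of the 3 HuR samples. Cutadapt 1.0, TopHat2 2.0.8 and the build hg19 (GRCh37) are named, per the submitters' processing notes. How sites and scores were made, and how the mouse serum samples entered them, the sources used here do not say. The deposited lists hold intervals on a grid of 5 nt and the authors' LOD score for each. Per the list's name, the authors limited 1 combined list at p 0.05.

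Sites were assigned to a locus by same-strand overlap, 1-based on hg19, with scipy 1.17.1, pandas 2.3.3 and numpy 2.4.6 in Python 3.11.15. Percentiles are mid-ranks within a list. Where several sites of a replicate overlapped a combined site, 1 was matched to it by shared bases. Loci above 10 kb were divided into the last 5 kb and the rest, shorter ones into 2 equal parts. No p-values were computed. The code was tested on simulated data. The sites named per locus were drawn by a set rule, and not every site that met it is named. The rule took the 3 with the highest combined LOD among those found in all 3 replicates. It also took the highest of each list, the widest, and the combined sites around them. Other apoptosis genes and genes of like pattern were not counted, since no hg19 annotation was used here. Members and lists were chosen with earlier results of these data known. The alternatives were other score minima, overlaps, windows and leaving out each replicate.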

Additional observations from a re-analysis of the deposited data

Results flagged for a closer look

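Sites on the strand opposite to the gene were outside the comparisons above and were found in 4 of the 8 loci. The combined list held 6 such sites in XIAP, 2 in PTMA, 1 in BCL2L11 and 6 in CYCS, and none in the other 4 genes. The strongest, chrX:123046191-123046220 on the minus strand within XIAP, had a LOD of 21.2 (percentile 99.9 of the combined list), was found in all 3 replicates, passed the p filter and overlapped a site on the plus strand. In PTMA, chr2:232577966-232578030 on the minus strand had a LOD of 11.7 (percentile 88.7), was likewise found in all 3 replicates, and passed the filter. The highest of the 6 in CYCS, chr7:25159701-25159735, stood at percentile 84.4 and was found in 1 replicate.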

How the results depend on the processing

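The alternatives gave 374 values for 70 results, and 61 of these values moved. A number of sites counted as moved when it changed by more than a set factor. Any other value counted as moved when it left the replicate spread or the counting interval. Reversals of direction were not tested, and with lists of equal size CYCS fell below XIAP in replicates 2 and 3. For the 8 genes together, 38 of 46 values did not move. Limiting each list to the same number of highest-scoring sites gave a mean of 133 sites per replicate in place of 273. Requiring 50% of each interval to be shared lowered the share found in all 3 replicates to 15.4%. The counting interval of that share, 12.3% to 19.1%, held the 13.4% over all sites. The share kept by the p filter fell to 39.9% (41.7% over all sites). With a LOD above 2, the share kept was 59.0% (55.9% over all sites), the mean of the median percentiles 48.9 in place of 45.1, and the ratio of loci to flanks 3.21. Using the last 10% of each long locus in place of the last 5 kb gave a density ratio of 3.37.

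Leaving out each replicate in turn gave 220.0 to 329 sites per replicate, 15008 to 22637 called bases, 30.7% to 53.9% of combined sites found in all remaining replicates, mean percentiles of 44.2 to 45.7, density ratios of 4.51 to 6.88 in the last 5 kb, and 65.9% to 77.0% of replicate sites matched in the others. The mean number of BCL2 sites was 31.3, and 20.5 without replicate 3. The cause of these shifts was not tested. No paired analysis was possible because the labels give replicate numbers that compare no groups here, and the results come from no test. Read depth per library is unknown, and it limits which weak sites could be called.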
